A study of Homo sapiens with 4 samples.

Results

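Both arms of human chromosome 19 carry rows of genes for C2H2 zinc finger proteins, most of them named ZNF with a number. The members described here are the protein-coding genes of chromosome 19 with such a symbol that have a transcript with a mean of at least 30 counts over the 4 columns of the deposited count table. Members were thus chosen by their mean count over both groups. The rule found 81 genes with 89 transcripts, out of 249 such genes in the table and out of 5983 genes of any kind with a transcript at that mean. The count columns that chose the members also give the comparison between the groups, so the numbers of members that differ are a description and carry no test.

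H1299, a human cell line from a lung carcinoma of the non-small-cell kind, was kept for 48 h in 2 groups. One group was treated with 5 μM HgCl2, an inorganic mercury salt, and the control group with its solvent alone, EtOH at 0.6%. Each group has 2 columns, named replicates 1 and 2. Poly-A RNA was sequenced in bulk. The treatment text in the labels names the mercury dose for every sample, and the methods of the study, which give the control cells only EtOH, were followed.

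A C2H2 zinc finger is a short fold held together by a zinc ion between a pair of cysteines and a pair of histidines, and a row of such fingers reads a stretch of DNA. Many of the chromosome 19 proteins also carry a KRAB domain, which recruits the co-repressor TRIM28 and, through it, the histone methyltransferase SETDB1 and heterochromatin proteins. The genes arose by repeated tandem duplication, and a number of the proteins are known to bind and silence transposable elements. Mercury binds thiols such as that of cysteine, but whether any of these proteins bound it was not measured.

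The columns of a group were not independent. The scatter between the columns of EtOH over the 89 member transcripts, as a variance, was 0.539 of that expected between independent libraries from counting alone (95% confidence interval 0.410 to 0.740), and in HgCl2 it was 0.461 of it (0.351 to 0.634). Set across the groups, replicate 1 of EtOH against replicate 1 of HgCl2, the members scattered 12 times as much as counting alone (9.09 to 16.4). For transcripts of any gene whose columns summed to at least 20 counts the ratios within EtOH and HgCl2 were 0.505 and 0.516. Within a group the columns differed by less than sampling noise would give, and each group entered as a single sample of n = 1 through its mean. Each difference is that of 1 sample against 1 sample, with no replicate check and no p-value. A transcript was called higher or lower when its log2 fold change, HgCl2 against EtOH, was at least 1 in size (2-fold). Intervals given with log2 fold changes are 95% Clopper-Pearson intervals of the mean counts, which take in counting error and nothing else.

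The finger sequences show how close neighbouring copies are, which bears on how far their counts can be told apart. The genes ZNF587, ZNF417 and ZNF587B lie in the row of genes near the end of the long arm. The following stretches of 63 bases code for 1 finger each, from the codon of its first cysteine to that of its last histidine, and capitals mark bases that differ from ZNF587. They were read from GENCODE 44 transcripts on GRCh38, as coding bases 1564 to 1626 in ZNF587 and ZNF417 and 1738 to 1800 in ZNF587B.

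ZNF587: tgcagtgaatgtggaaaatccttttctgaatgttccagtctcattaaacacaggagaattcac

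ZNF417: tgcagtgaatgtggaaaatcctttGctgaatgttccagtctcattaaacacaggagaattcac

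ZNF587B: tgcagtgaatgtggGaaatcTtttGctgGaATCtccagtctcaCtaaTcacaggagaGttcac

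In this finger ZNF417 differed from ZNF587 at 1 base (98.4% identity) and ZNF587B differed from ZNF587 at 10 bases (84.1%). The coding sequence of ZNF587 holds 1651 windows of 75 bases, the read length. Of these, 917 (55.5%) also occur unchanged in the coding sequence of ZNF417, and 0 in that of ZNF587B. A single read from a shared window cannot be told apart between ZNF587 and ZNF417. Fragments were read from both ends, so the other read may lie outside the shared windows. How such reads were counted is not given. The counts of this pair of genes are thus uncertain and may not be independent of each other.

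The promoters show a second feature that some members share, a 10-letter element around a CCAAT box. Its position was read only in the 4 genes shown here. Each line holds the 250 bases before and the 50 bases from the RefSeq gene start on GRCh38.p14, and capitals mark TCCAATCAGG. ZNF91 (chr19:23395422-23395721) and ZNF14 (chr19:19733063-19733362) had called transcripts lower in HgCl2, and ZNF100 (chr19:21767530-21767829) and ZNF724 (chr19:23250345-23250644) had called transcripts higher. All 4 genes are on the minus strand, and the sequences run 5′ to 3′ along the gene.

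ZNF91: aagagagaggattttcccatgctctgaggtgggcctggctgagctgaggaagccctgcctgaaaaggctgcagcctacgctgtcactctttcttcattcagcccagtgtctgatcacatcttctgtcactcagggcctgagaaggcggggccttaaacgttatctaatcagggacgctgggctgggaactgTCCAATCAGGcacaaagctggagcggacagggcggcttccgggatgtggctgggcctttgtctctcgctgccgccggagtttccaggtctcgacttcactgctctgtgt

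ZNF14: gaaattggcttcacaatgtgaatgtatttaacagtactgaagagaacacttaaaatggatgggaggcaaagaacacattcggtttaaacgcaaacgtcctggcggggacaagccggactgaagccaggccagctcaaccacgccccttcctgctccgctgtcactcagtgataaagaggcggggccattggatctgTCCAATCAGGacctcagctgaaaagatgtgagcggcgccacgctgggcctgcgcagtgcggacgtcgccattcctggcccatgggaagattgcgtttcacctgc

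ZNF100: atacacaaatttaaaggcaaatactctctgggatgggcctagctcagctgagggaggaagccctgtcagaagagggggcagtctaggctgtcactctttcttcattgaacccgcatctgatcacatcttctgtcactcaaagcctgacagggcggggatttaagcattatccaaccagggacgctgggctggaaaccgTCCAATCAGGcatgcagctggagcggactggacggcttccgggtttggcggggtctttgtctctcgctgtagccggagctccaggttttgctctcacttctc

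ZNF724: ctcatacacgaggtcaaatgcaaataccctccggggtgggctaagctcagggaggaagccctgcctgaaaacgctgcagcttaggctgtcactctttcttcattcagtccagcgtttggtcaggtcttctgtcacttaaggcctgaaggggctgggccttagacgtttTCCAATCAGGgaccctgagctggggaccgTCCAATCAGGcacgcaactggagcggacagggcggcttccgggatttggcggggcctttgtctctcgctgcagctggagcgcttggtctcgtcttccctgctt

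In ZNF91, ZNF14 and ZNF100 the element starts 59, 54 and 52 bases before the gene start. ZNF724 has 2 copies, which start 82 and 53 bases before it. The element was picked as the most frequent 10-letter word in the members' promoters, so its frequency there was part of its choice. On either strand it occurs in 19 (26.8%) of the 71 member genes with a promoter in the RefSeq table and in 117 (0.428%) of 27305 genes. Of the 19 genes, 14 lie in a single row of genes next to the centromere, between ZNF101 and ZNF254. Taken by the best counted transcript of each gene, genes with the element stood on both sides of the comparison, with 2 called higher, 2 called lower and a median log2 fold change of -0.20, where 11.4% and 12.7% of all 7156 transcripts at the count floor were called higher and lower. Of the matched genes without it, 5 were called higher and 5 lower, with a median of -0.03.

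Other short motifs were searched in the same windows, on both strands, each with its share of all promoters. CCAAT, which lies inside the 10-letter element, was in 40 (56.3%) of the 71 member promoters and in 39.7% of all. GGGCGG, a GC box, was in 49 (69.0%) and in 48.3%. TGCACNC and TGCGCNC, forms of the core of the metal response element, where MTF1 binds in metallothionein promoters, were in 11 (15.5%) and 21 (29.6%) of the member promoters and in 14.4% and 23.0% of all. A match in letters is a description and not a binding site.

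Of the 249 chromosome 19 ZNF genes in the table, 199 had a count in some column, 50 had none, and 118 had counts that stayed below the rule. The 89 member transcripts held 88.0% of the family's counts. Within a member gene, the member transcripts held between 65.3% and all of the gene's counts, with a median of 99.2%, so most genes were read through 1 transcript. By GENCODE class, 80 of the 89 were protein-coding, 6 were retained introns, 2 were targets of nonsense-mediated decay and 1 was a transcript of a coding gene with no defined coding sequence. Just inside the rule were ZNF461 (mean 30), ZNF155 (30.5) and ZNF347 (30.75). Just outside were ZNF576 (29.0), ZNF493 (28.25) and ZNF285 (26.75). Of these, ZNF493 had 5 and 8 counts in EtOH and 50 and 50 in HgCl2, and ZNF285 had 12 and 10 in EtOH and 42 and 43 in HgCl2.

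The family was a small part of the libraries. The total counts per column lay between 4720978 and 5053120, and the family took 0.263% and 0.262% of them in EtOH and 0.286% and 0.283% in HgCl2. The member counts summed to 11381 and 11323 in EtOH and to 12177 and 12087 in HgCl2. Single members were thin: the mean count ranged from 30 to 1094.75 with a median of 79.0, 52 members were under 100 and only 1 was above 500. Of the markers listed for a lung carcinoma line, in the order EtOH replicates 1 and 2 and HgCl2 replicates 1 and 2, VIM had 620, 628, 501 and 511 counts, HMGA2 34704, 35108, 94083 and 93809, and KRT8 53, 58, 4 and 4. KRT18 lay between 18 and 31, CDH2 had 13, 13, 1 and 2, KRT19 was at 0, and the blood markers PTPRC and CD3E were at 0 in all 4 columns.

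Whether a transcript was counted at all went with how many of its bases no other listed transcript covers. Of the 1656 listed transcripts of the family, 684 have no such base in the GENCODE annotation, and 18 of these had a count. The transcript with the most such bases had a median of 2495.0 of them over the 81 member genes, 1192.0 over the 118 genes below the rule and 480.5 over the 50 genes with no count. The counting options behind this are not given in the sources used here. A gene at 0 is therefore only listed at 0, and the values are those of transcripts and not of genes.

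On the length-adjusted FPKM scale, the level of the members ranged from 0.809 to 56.7 with a median of 4.46, and 17 of the 89 were above 10. The highest was ZNF224, a KRAB repressor first described at the aldolase A promoter and later as a partner of WT1. Its main transcript ENST00000336976 (chr19:44094392-44109886, plus strand) had 1032 and 1007 counts in EtOH and 1195 and 1145 in HgCl2, a log2 fold change of 0.14 (0.02 to 0.26). The groups did not overlap, but the difference was a small fraction of the 2-fold threshold. Of its bases, 1942 lie in an exon of the antisense gene ZNF225-AS1, and the named library kit does not mark strand, so reads of these genes cannot be told apart there. Of its 75-base windows 47.9% occur in another gene, most often in ZNF225-AS1.

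Next by FPKM came a short ZNF224 transcript, then ZNF829, the coding transcript of ZNF738, and ZNF420. ZNF829 had 419 and 446 counts in EtOH and 439 and 449 in HgCl2 (log2 fold change -0.02, -0.21 to 0.17). ZNF420, a KRAB zinc finger gene with a long finger row, had 311 and 302 in EtOH and 294 and 264 in HgCl2 (-0.19, -0.43 to 0.05). Both were near the no-change line, and their intervals leave out a 2-fold change in either direction.

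**Figure D1:**
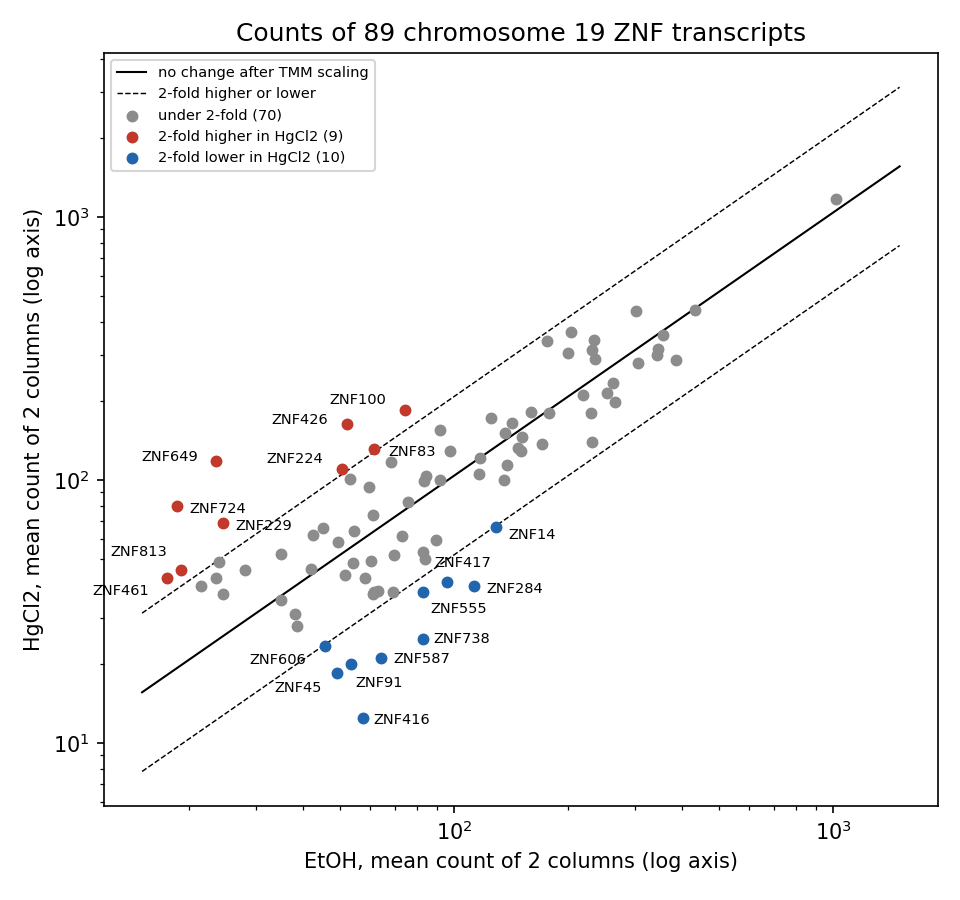
Mean count of each of the 89 member transcripts in EtOH (x axis) and HgCl2 (y axis), both log axes, with lines for no change and for 2-fold differences after TMM scaling. The 9 transcripts called higher lie above the upper dashed line and the 10 called lower below the lower one, and nearly all of them are at the thin end, under 100 mean counts.

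Of the 89 member transcripts, 9 (10.1%) were at least 2-fold higher in HgCl2 and 10 (11.2%) at least 2-fold lower. Among all 7156 transcripts at the same count floor the shares were 11.4% higher and 12.7% lower, so the members were called about as often as transcripts at large. The median log2 fold change was -0.04 over the members (quartiles -0.48 and 0.49) and 0.01 over all 7156. The interval lay above 0 for 24 members and below 0 for 25, against a background of 32.8% and 33.9%. The remaining 40 members had an interval that included 0. As a group the members were centred close to no change on this scale. In bulk RNA, fewer cells with a transcript and less of it per cell cannot be told apart.

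Most of the calls were of thin transcripts. Of the 52 members under 100 mean counts 17 were called, and of the 37 with more 2 were called, both higher. The rule bears on these counts. The EtOH mean was under 30 for 10 members, of which 5 were called higher (ZNF649, ZNF724, ZNF813, ZNF229 and ZNF461). The HgCl2 mean was under 30 for 7, of which 6 were called lower (ZNF416, ZNF738, ZNF587, ZNF91, ZNF45 and ZNF606). Such transcripts pass the rule only through the group in which they are high. Among all transcripts of the table between 30 and 500 mean counts, the range of all members but 1, 14.1% were called higher and 15.6% lower.

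The scale on which the groups are compared moves the calls. The log2 fold changes above use TMM factors. On the deposited FPKM values, as log2(FPKM + 1), the median was 0.35 over all 7156 transcripts and 0.30 over the members, and 12 members were called higher and 2 lower, where 16.2% and 4.65% of all transcripts were. The added 1 also shrinks the differences of members with low FPKM.

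Among the higher transcripts the largest difference was that of ZNF649, a KRAB zinc finger gene in the row between ZNF175 and ZNF331 on the long arm. ENST00000354957 (chr19:51889235-51905017, minus strand) had 20 and 27 counts in EtOH and 116 and 121 in HgCl2, a log2 fold change of 2.27 (1.63 to 2.98), or 4.82-fold. Its EtOH mean was 23.5 counts, so it passed the rule only through HgCl2. Of its bases, 172 lie in exons of the opposite strand, where ZNF649-AS1 is annotated.

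ZNF724, of the row next to the centromere, had 16 and 21 counts in EtOH and 85 and 74 in HgCl2 on ENST00000418100 (chr19:23221599-23250394), a log2 fold change of 2.04 (1.30 to 2.86). Its EtOH mean was 18.5 counts, so it too passed the rule only through HgCl2. Of the 75-base windows of this transcript, 51.9% also occur in an overlapping gene that has an identifier and no symbol (ENSG00000283201). ZNF426, on the short arm, had 54 and 50 counts in EtOH and 159 and 169 in HgCl2 on ENST00000253115 (chr19:9523223-9538645), a log2 fold change of 1.60 (1.14 to 2.08). Of its 75-base windows 2.92% occur elsewhere. These 3 transcripts were the members whose interval lay wholly above a 2-fold difference. The interval takes in counting error alone and does not allow for the choice of ZNF649 and ZNF724 through HgCl2.

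ZNF100 had 81 and 67 counts in EtOH and 183 and 186 in HgCl2 (log2 fold change 1.26, 0.86 to 1.67). ZNF100 and ZNF426 were the only higher transcripts with a mean over 100 counts. ZNF813 was thin, with 22 and 16 counts in EtOH and 44 and 47 in HgCl2 (1.20, 0.40 to 2.06), and was at 0.99 without EtOH replicate 2. It passed the rule only through HgCl2. The short ZNF224 transcript ENST00000589870 had 53 and 48 in EtOH and 106 and 115 in HgCl2 (1.07, 0.58 to 1.58). Its class is protein-coding, but its 614 bases are too few to code for the full protein of 707 residues.

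The other 3 higher transcripts do not code for the full protein by their class. The nonsense-mediated decay transcript of ZNF229 had 25 and 24 counts in EtOH and 72 and 65 in HgCl2 (1.42, 0.74 to 2.15). The retained intron of ZNF461 had 18 and 17 in EtOH and 43 and 42 in HgCl2 (1.22, 0.39 to 2.12), and that of ZNF83 had 62 and 61 in EtOH and 139 and 123 in HgCl2 (1.03, 0.59 to 1.49). Without HgCl2 replicate 1 the ZNF83 value was 0.94. The ZNF229 and ZNF461 transcripts passed the rule only through HgCl2. The columns of a group differed by less than counting noise, so a gap between the columns of the groups is no replicate check for any member.

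**Figure D2:**
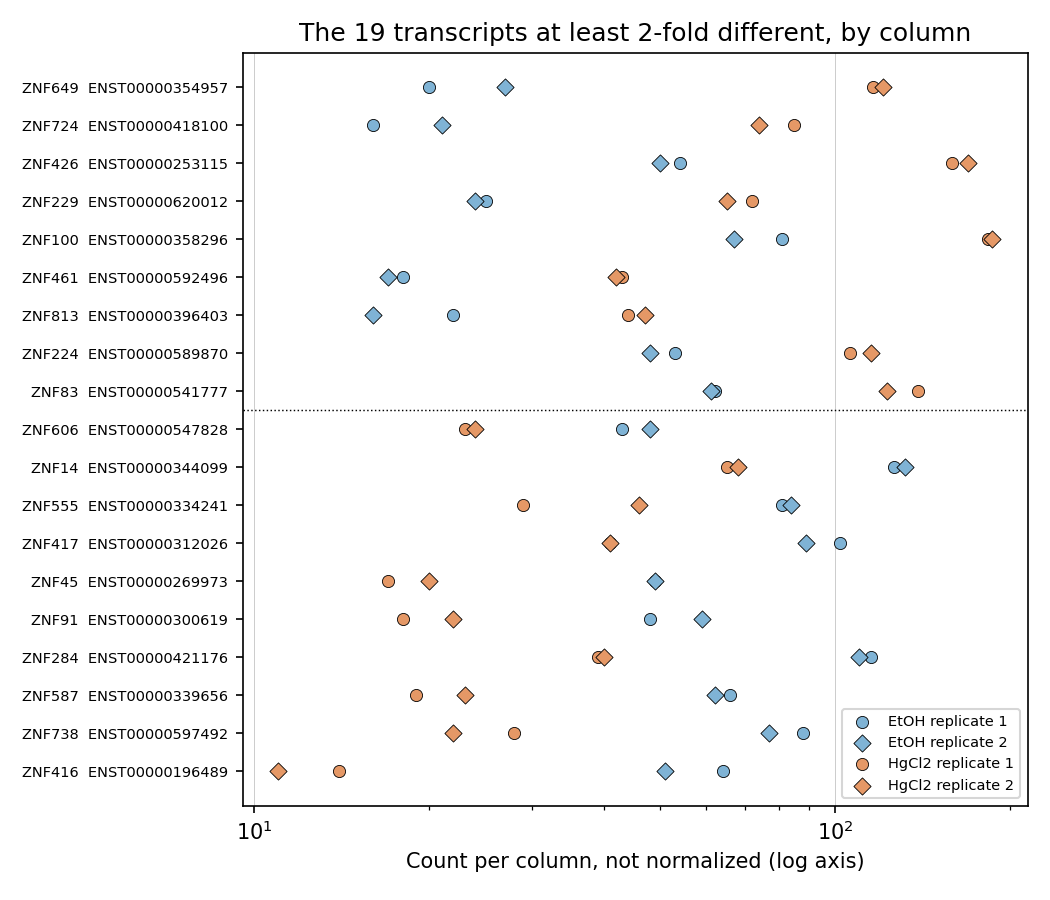
Count in each of the 4 columns (x axis, log, not normalized) for the 19 called transcripts, with the 9 higher ones above the dotted line and the 10 lower ones below it. Blue marks EtOH, orange HgCl2, circles replicate 1 and diamonds replicate 2. The columns of a group differ by less than counting noise, so a gap between blue and orange marks is no replicate check.

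Among the lower transcripts, ZNF416 stood furthest from no change. ENST00000196489 (chr19:57571566-57578911, minus strand) had 64 and 51 counts in EtOH and 14 and 11 in HgCl2, a log2 fold change of -2.25 (-3.27 to -1.36), or 4.75-fold lower. The HgCl2 columns were the lowest of all member values, with a mean of 12.5 counts, so ZNF416 passed the rule only through EtOH. Of its bases, 240 lie in the antisense gene ZIK1, another zinc finger gene.

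Of the genes listed for a textbook role, ZNF91, ZNF587, ZNF417, ZNF420 and ZNF224 are members. Of these, 3 were called lower, ZNF91, ZNF587 and ZNF417. The short ZNF224 transcript was called higher, and the main ZNF224 transcript and ZNF420 were not called. Among all tested transcripts 12.7% were called lower and 11.4% higher. On log2(FPKM + 1) the 3 lower ones were at -0.60, -0.67 and -0.65. ZNF91 and ZNF587 had HgCl2 means of 20 and 21 counts and passed the rule only through EtOH. ZNF91, which silences SVA and LINE elements and has the longest finger row of the members with 31 fingers, had 48 and 59 counts in EtOH and 18 and 22 in HgCl2 on ENST00000300619 (chr19:23357696-23395471), a log2 fold change of -1.47 (-2.30 to -0.71). ZNF587 had 66 and 62 in EtOH and 19 and 23 in HgCl2 on ENST00000339656 (chr19:57849859-57865117; -1.66, -2.45 to -0.93). ZNF417 had 102 and 89 in EtOH and 41 and 41 in HgCl2 on ENST00000312026 (chr19:57905774-57916592; -1.28, -1.84 to -0.74). ZNF417 and ZNF587 are known to act on endogenous retroviruses of the HERV-K group. Over the whole transcripts, 38.5% of the windows of ZNF587 and 29.3% of those of ZNF417 occur in other genes, and 2443 bases of ZNF587 lie in antisense genes, among them ZNF814. Their neighbour ZNF587B, which shares none of the coding windows, had 44 and 41 counts in EtOH and 69 and 55 in HgCl2 (0.49, -0.10 to 1.09).

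The other lower coding transcripts were ZNF284, ZNF45, ZNF555, ZNF14 and ZNF606. ZNF284 had 115 and 110 counts in EtOH and 39 and 40 in HgCl2 (-1.56, -2.13 to -1.03), with 43.0% of its windows in an overlapping gene that has no symbol. ZNF45 had 49 and 49 in EtOH and 17 and 20 in HgCl2 (-1.46, -2.32 to -0.67). The HgCl2 mean of ZNF45 was 18.5 counts, so it passed the rule only through EtOH.

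ZNF555 had 81 and 84 counts in EtOH and 29 and 46 in HgCl2 (-1.19, -1.79 to -0.62). ZNF14 had 126 and 132 in EtOH and 65 and 68 in HgCl2 (-1.01, -1.46 to -0.58). The ZNF606 transcript ENST00000547828 had 43 and 48 in EtOH and 23 and 24 in HgCl2 (-1.01, -1.80 to -0.26). These 3 sit at the threshold, and each came to less than 2-fold when HgCl2 replicate 1 was left out, with log2 fold changes of -0.90, -0.98 and -0.98. Without EtOH replicate 2, ZNF14 was at -0.98 and ZNF606 at -0.92. This ZNF606 transcript passed the rule only through EtOH. The last of the lower transcripts is the nonsense-mediated decay transcript of ZNF738, described with the pairs of transcripts.

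The genes of the list with a textbook role that are not members were at few or no counts. ZNF274, which binds the ends of ZNF genes and brings SETDB1 there, had 22, 27, 30 and 26 counts over its transcripts in EtOH replicates 1 and 2 and HgCl2 replicates 1 and 2. ZNF93, a LINE repressor, had 8, 10, 15 and 9, and ZNF146, a protein of fingers without a KRAB domain, had 14, 13, 1 and 0. ZNF350, a partner of BRCA1, had 1, 2, 0 and 0, and ZNF304, ZNF331, ZNF558 and ZNF808 were listed at 0 in all 4 columns.

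Of the member genes, 8 had 2 member transcripts, and in 4 of these the intervals of the pair did not overlap. How often pairs of other genes stand apart is not given here. In ZNF738 the nonsense-mediated decay transcript ENST00000597492 had 88 and 77 counts in EtOH and 28 and 22 in HgCl2 (-1.78, -2.49 to -1.12). Its coding transcript ENST00000311015 had 214 and 224 in EtOH and 211 and 209 in HgCl2 (-0.12, -0.40 to 0.16). The lower level was thus seen in 1 of the transcripts only. That transcript had an HgCl2 mean of 25 counts and passed the rule only through EtOH.

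In ZNF599 both transcripts are coding. ENST00000587354 had 254 and 277 counts in EtOH and 194 and 202 in HgCl2 (-0.48, -0.75 to -0.21), and ENST00000329285 had 61 and 58 in EtOH and 99 and 90 in HgCl2 (0.61, 0.13 to 1.10). In ZNF677 both are retained introns. ENST00000599328 had 137 and 133 in EtOH and 98 and 102 in HgCl2 (-0.49, -0.88 to -0.11), and ENST00000593539 had 23 and 24 in EtOH and 45 and 40 in HgCl2 (0.79, 0.04 to 1.59). In both genes the better counted transcript was the one that was lower, and neither transcript passed 2-fold. The ZNF677 transcript ENST00000593539 had an EtOH mean of 23.5 counts and passed the rule only through HgCl2.

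In ZNF224 both transcripts were higher, by 0.14 and 1.07 on the log2 scale. In ZNF283, ZNF382, ZNF529 and ZNF606 the intervals overlapped. With the counts of all transcripts of a gene summed, 7 of the 81 genes were called higher and 7 lower, where 8.33% and 12% of all genes were.

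**Figure D3:**
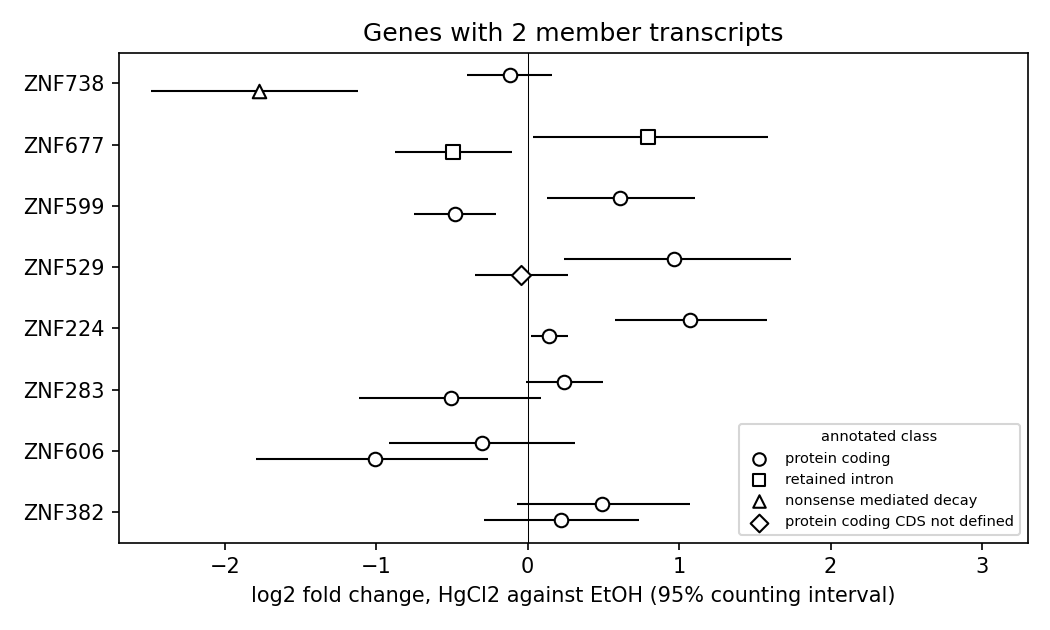
Log2 fold change, HgCl2 against EtOH, with its 95% counting interval (x axis) for the 2 member transcripts of 8 genes, with marker shapes for the annotated class. The intervals of ZNF738, ZNF677, ZNF599 and ZNF224 do not overlap, and those of the other 4 genes do.

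Retained introns of any gene were called higher more often than lower, 25.8% against 9.14% of 1061, with a median log2 fold change of 0.39. Of the 6 among the members, 2 were called higher and 0 lower, with a median of 0.84, and 1 of the called ones, ZNF461, reached the floor only through HgCl2, while the 80 protein-coding transcripts had a median of -0.08 with 6 higher and 9 lower. ZNF507, the sole member of its stretch of the chromosome, had 188 and 163 counts in EtOH and 329 and 345 in HgCl2 on a retained intron (0.88, 0.62 to 1.15). With 6 transcripts of 5 genes this is a description of those transcripts.

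Along the chromosome the family fell into 16 blocks of genes with neighbouring starts within 1 Mb, and 11 of these held members. The largest shares of members were in block 5, next to the centromere (chr19:19668796-24129968; 17 member genes), block 16, at the end of the long arm (chr19:55476617-58481230; 15), block 9 (chr19:36182276-37817300; 12), block 15 (chr19:51571283-53580269; 12) and block 12 (chr19:43525497-45076478; 11). All 4 called transcripts of block 16 were lower, out of 16, namely ZNF416, ZNF587, ZNF417 and ZNF606, and the median of the block was -0.42. ZNF416, ZNF587 and ZNF606 had HgCl2 means under 30 counts and passed the rule only through EtOH. All 3 called transcripts of block 15 were higher, out of 13, namely ZNF649, ZNF83 and ZNF813, with a median of 0.19. ZNF649 and ZNF813 had EtOH means under 30 and passed only through HgCl2. Over all tested transcripts 11.4% were called higher and 12.7% lower. ZNF587 and ZNF417 share windows, so the 4 of block 16 may not be 4 separate observations.

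In block 5, 2 of 18 transcripts were called higher (ZNF100, ZNF724) and 3 lower (ZNF738, ZNF91, ZNF14), with a median of 0.02. In block 12, 2 of 13 were higher (ZNF224, ZNF229) and 2 lower (ZNF284, ZNF45), with a median of 0.09. Called transcripts of these rows lay on both sides, where 11.4% of all tested transcripts were called higher and 12.7% lower. Of those named, ZNF724 and ZNF229 passed the rule only through HgCl2. The ZNF738, ZNF91 and ZNF45 transcripts passed it only through EtOH. In block 9, 1 of 14 was called, the ZNF461 retained intron, with a median of 0.02, among its 12 member genes. That transcript passed the rule only through HgCl2.

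**Figure D4:**
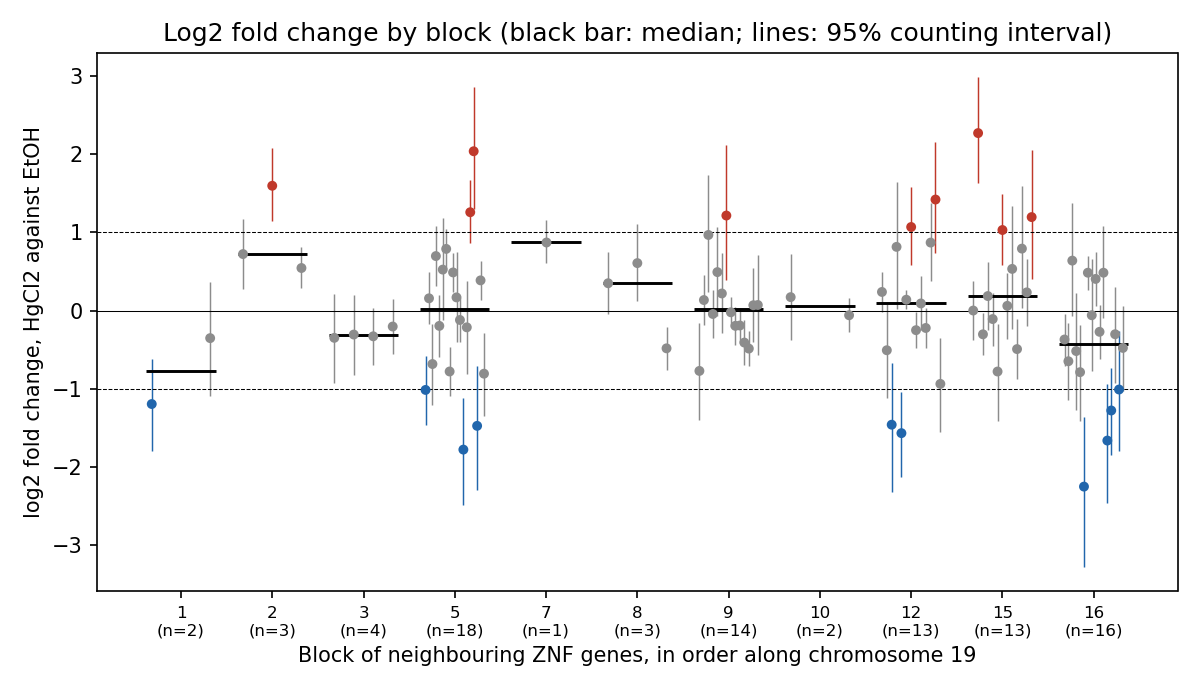
Log2 fold change, HgCl2 against EtOH, of each member transcript (y axis) in the 11 blocks that hold members, in order along chromosome 19 (x axis), with 95% counting intervals, red for called higher, blue for called lower and black bars for block medians. Block 16 holds 4 lower and 0 higher transcripts, block 15 holds 3 higher and 0 lower, and blocks 5 and 12 hold both.

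The encoded proteins differ in length of the finger row and in the KRAB domain. The number of C2H2 fingers per gene, counted by the spacing of cysteines and histidines in the translated coding sequence, ranged from 5 to 31 with a median of 13. A KRAB sequence pattern was found in 67 of the 81 genes. No match says only that the letters were not found, since ZNF649, a known KRAB gene, was among those without one. Of the 74 transcripts of genes with the pattern, 6 were higher and 10 lower (median -0.08). Of the 15 without, 3 were higher and 0 lower (0.17), beside the 11.4% higher and 12.7% lower of all tested transcripts. These 3 were ZNF649 and the retained introns of ZNF461 and ZNF83. Of them, ZNF649 and ZNF461 passed the rule only through HgCl2. Among those with the pattern, ZNF724, ZNF813 and ZNF229 passed only through HgCl2, and 6 of the 10 lower ones only through EtOH. The contrast is therefore not read as one of the KRAB domain.

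By finger number, 2 of 24 transcripts of genes with up to 10 fingers were higher and 1 lower (median 0.11). With 11 to 14 fingers 5 of 40 were higher and 5 lower (-0.25), and with 15 or more 2 of 25 were higher and 4 lower (-0.06). Of all tested transcripts 11.4% were higher and 12.7% lower, so each of these sets holds few calls and no trend is read from them. Across the 89 transcripts, Spearman's rho of the log2 fold change was 0.07 with mean count, 0.02 with length, -0.11 with GC content and -0.05 with finger number. These points share libraries and, within pairs of transcripts, genes. The member transcripts had a median length of 4336.0 bases, against 3115.0 for all tested transcripts, and GC contents between 33.9% and 49.0%.

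Sequence shared with other genes limits some of the members. Of the 89, 33 share no 75-base window with another gene, and 14 share at least 10% of their windows, up to 59.5%. Among these 14, 1 was called higher and 3 lower, against 8 and 7 among the other 75, where 11.4% and 12.7% of all tested transcripts were. The highest share, that of a ZNF529 transcript, was mainly with the overlapping antisense gene ZNF529-AS1. Shared windows and exon overlaps are thus in part the same bases. Exons of 39 members overlap an exon of another gene, 21 of them on the opposite strand. Among the 50 members free of such overlap 5 were called higher and 4 lower, beside the same 11.4% and 12.7%.

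The comparison lists put the members beside like genes. ZNF genes of other chromosomes had 99 transcripts at the same count floor, of which 10 (10.1%) were called higher and 12 (12.1%) lower, with a median of 0.01. Other protein-coding genes of chromosome 19 had 122, of which 13 (10.7%) were higher and 29 (23.8%) lower, with a median of -0.16. The ZNF genes of chromosome 19 thus lay closer to the ZNF genes elsewhere than to their chromosomal neighbours in the share called lower. No test of these differences was made.

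**Figure D5:**
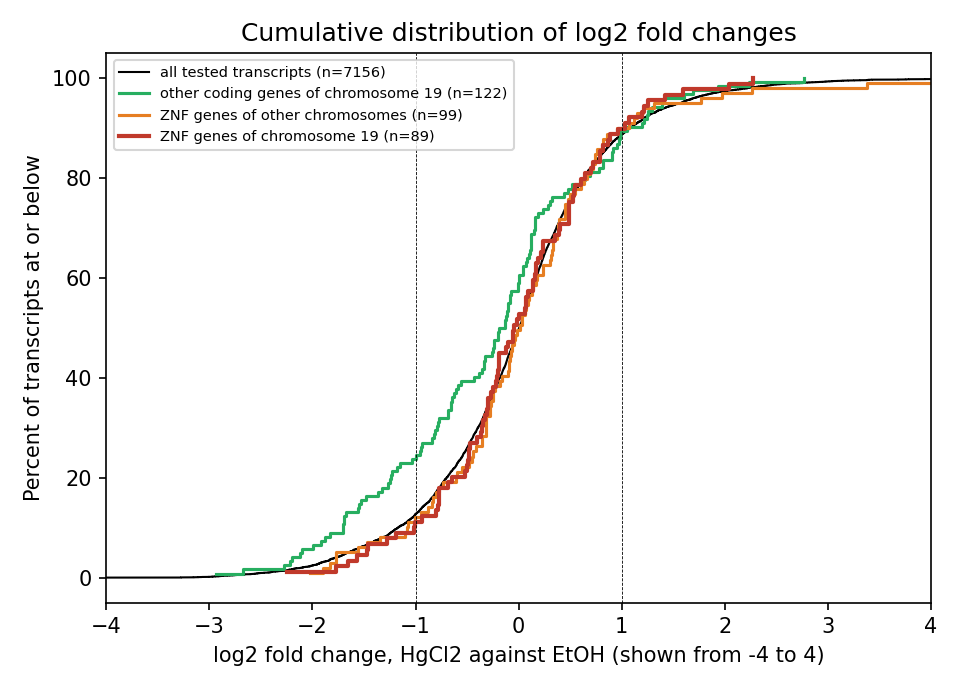
Cumulative percent of transcripts (y axis) at or below each log2 fold change, HgCl2 against EtOH (x axis), for chromosome 19 ZNF genes, ZNF genes of other chromosomes, other coding genes of chromosome 19 and all 7156 tested transcripts. The red curve of the members follows the black curve of all transcripts, with medians of -0.04 and 0.01, while the green curve of the other chromosome 19 genes lies to the left on the low side.

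KRAB proteins act through co-repressors, which were read on few transcripts. Of 17 KRAB co-repressor genes, 8 had a transcript at the floor, 12 transcripts in all, of which 1 was called higher and 0 lower (median -0.12), where 11.4% and 12.7% of all tested transcripts were called. The interval lay above 0 for 2 of the 12 and below 0 for 3. TRIM28, the direct partner of the KRAB domain, was listed at 0 in all 4 columns, and its transcripts have at most 272 bases that no other transcript covers. SETDB1 had 50, 55, 51 and 50 counts over its transcripts in EtOH replicates 1 and 2 and HgCl2 replicates 1 and 2. CBX5, which codes for the heterochromatin protein HP1 alpha, had 5552 and 5542 counts in EtOH and 4593 and 4592 in HgCl2 on its coding transcript ENST00000209875 (-0.33, -0.39 to -0.27).

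The called transcript of this list was a coding transcript of CBX3, which codes for HP1 gamma, with 25 and 25 counts in EtOH and 58 and 64 in HgCl2 (1.22, 0.54 to 1.96). Its EtOH mean was under the floor of 30 counts, which it reached only through HgCl2. Of 15 genes of the HUSH silencing complex and of histone H3 lysine methylation and DNA methylation at heterochromatin, 6 had 11 transcripts at the floor, of which 1 was higher and 0 lower (median -0.10), against the same 11.4% and 12.7%. It was a retained intron of PPHLN1, a HUSH subunit, with 18 and 25 counts in EtOH and 116 and 118 in HgCl2 (2.38, 1.71 to 3.12), and it too reached the floor only through HgCl2. The other HUSH subunits MPHOSPH8 and TASOR had 720, 683, 681 and 647 counts on ENST00000361479 and 202, 198, 232 and 240 on ENST00000459993, in the same order of columns.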

How the data were processed

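RNA-seq of H1299 cells, 2 columns per group, was taken from the tables of the whole series. Per the methods of the study, reads of 75 bases from both ends of each fragment went through Trim Galore 0.6.5 and were aligned to GRCh38 by STAR 2.5.4b. The authors then made the deposited counts, per transcript of Ensembl 98 and not normalized, with Rsubread 2.0.1. Counting options are not given in the sources used here. From the counts the authors computed the deposited FPKM with DESeq2 1.26.0. The study calls its libraries directional, whereas the kit it names, TruSeq RNA version 2, does not mark strand.

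Identifiers were mapped with GENCODE 44 on GRCh38, which held 223558 of 227368. Members and lists were chosen with earlier results of these data known. Log2 fold changes were fitted with edgeR 4.0.16 (glmQLFit, TMM, R 4.3.3) over all 7156 transcripts whose mean reached 30 counts. Total counts per column were 4720978 to 5053120. Since columns of 1 group differed by under the sampling noise, each group was 1 sample, no p-value was used, and a difference of 2-fold was the threshold. DESeq2 1.42.0, limma 3.58.1, other filters, scales and subsets of members were alternatives. On simulated data for 7156 transcripts in this comparison, the fit placed 200 of 200 transcripts changed 4-fold past 2-fold, and 1 unchanged transcript. The simulated columns were independent and held counting noise alone, unlike the columns here. The outcome checks the fit and gives no rate of false calls in these data.

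Named transcripts were the 5 with the highest FPKM, up to 12 called in each direction, 3 on each side of the count limit, pairs of 1 gene with separate intervals at least 1 apart on the log2 scale, genes with a textbook role, and TRIM28, SETDB1 and called transcripts of the co-repressor and heterochromatin lists. Others were named after their values were seen to describe neighbours, pairs and retained introns. Fingers were found as C, 2 residues, C, 12 residues, H, 3 to 5 residues, H in translated GENCODE coding sequences. The first KRAB pattern found 40 genes and missed known ones, and a wider pattern with 67 was then used. Shared windows of 75 bases and exon overlaps were computed from GENCODE transcripts, and promoters came from RefSeq on GRCh38.p14, which held 71 of the 81 genes. Protein sequences were not used here.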

Additional observations from a re-analysis of the deposited data

How the results depend on the processing

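The numbers of members called were 9 higher and 10 lower. They moved by more than 1.5 times, or their median log2 fold change (-0.04) moved by more than the spread, under these settings. On log2(FPKM + 0.1), 17 were higher and 6 lower, with a median of 0.34 against 0.38 over all tested transcripts. On log2(FPKM + 1), 2 were lower, where 4.65% of all tested transcripts were, and the median was 0.30. With no filter on low counts, 17 were higher and 6 lower, with a median of 0.30. Over all transcripts with a count the median was -0.83, with 20.7% higher and 47.6% lower. The cause was not tested. With a minimum of 100 counts, 2 of 37 members were higher and 0 lower, and among members with no exon base in another gene 5 and 4 of 50, both smaller sets by construction. The ratio of column difference to counting noise in HgCl2 was 0.497 with at least 100 counts. Leaving out each column in turn gave 9 to 10 higher, 7 to 10 lower and medians from -0.06 to 0.02. With DESeq2, voom, median-ratio factors, total counts, a minimum of 10 counts in every column, the FPKM filter of the study, gene sums, coding transcripts alone and members with few shared windows, 6 to 13 were higher and 7 to 10 lower. On total counts the split was 12 to 8, where 14.1% of all transcripts were higher and 10.4% lower. With the FPKM filter it was 13 to 7, where 19.2% of all were higher and 34.1% lower. Of 378 values of named transcripts under alternatives, 351 stayed within the counting interval and 27 left it. A sign changed in 0 values of called transcripts and in 16 of transcripts not called, all of ZNF829, ZNF420 and the coding transcript of ZNF738, of which ZNF829 came to 0.36 on log2(FPKM + 0.1).

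With the replicate number as a block, 9 members were higher and 10 lower and the median was -0.04. The numbers share only a name: across 7156 transcripts the column differences of EtOH and HgCl2 had a correlation of 0.04, with 2 pairs, so the pairing was not used.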

Other observations

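Below the rule, 328 transcripts of chromosome 19 ZNF genes had a count but a mean under 30. Their counts summed to 1910 and 1911 in EtOH and to 1350 and 1262 in HgCl2, a ratio of 0.684 between the groups. The same ratio over all 32573 transcripts under that mean was 0.716. Of the 328 transcripts, 33 (10.1%) were at 0 in both EtOH columns and 105 (32%) in both HgCl2 columns, against 11.6% and 35.6% of all transcripts under that mean. The weakly counted family members were thus fewer in the HgCl2 columns by about the same amount as weakly counted transcripts of any gene. The counts of the members summed to more in HgCl2. Those of all tested transcripts summed to less, 4885656 and 4886854 in EtOH and 4603478 and 4602113 in HgCl2. Such sums are not normalized and lean on the best counted transcripts, and the median log2 fold change of the members was -0.04. Genes of the family with a count numbered 183 and 185 in EtOH, by column, against 174 and 171 in HgCl2. The cause was not tested.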
